A study of Arabidopsis thaliana with 18 samples.

Results

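The comparison described here set leaves of the ml5 line against leaves of the ml2 line of Arabidopsis thaliana before darkness, at day 0 of a dark treatment, across all genes. Its members were chosen by label alone, as the 3 ml5 and 3 ml2 libraries of day 0, which are 6 of the 18 libraries of the series. In the ml5 plants, which the labels call an ml5 knockdown, the gene ML5 is targeted. In the ml2 plants, called an ml2 knockdown, the gene ML2 is targeted. Wild-type leaves (WT, 3 libraries of the same day) are given beside both lines to place their levels. The remaining 9 libraries hold the same genotypes at day 7 of darkness, and the 6 of them from ml5 and ml2 serve as other samples of the same contrast. Reading the columns marked as control check as day 0 was an inference from the labels. The sources used here do not give plant age, time of day, the enrichment of messenger RNA, or whether each knockdown is 1 line or several. Doxycycline appears in the extraction protocol, yet no sample is marked as having received it. The replicates are not stated to be separate plants, and the p-values then reflect only how far these libraries spread, which may be technical.

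ML2 and ML5 belong to the Mei2-like family, plant proteins that carry RNA recognition motifs and are named after Mei2, an RNA-binding protein needed for meiosis in fission yeast. In Arabidopsis its members are known from work on meiosis and early development, and the related TEL genes from the shoot and root tips. In leaves, 2 broad programmes of genes are commonly seen to oppose each other. The first is defence against pathogens, run by salicylic acid and jasmonate, with the indole compound camalexin among its products. The second is growth with photosynthesis, run by auxin, gibberellin, brassinosteroid and light.

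The deposited table held estimated counts for 27628 genes, and 19493 of them had enough counts to be tested. Levels are CPM (scaled counts relative to library size), which compare a gene between libraries and not genes with each other. A fold change is ml5 over ml2 on the log2 scale with its standard error (SE), so a positive value is higher in ml5, and a gene passed at an adjusted p under 0.05 over all tested genes. Library totals were 14914598 to 17312543 counts in ml5 and 19117640 to 19754143 in ml2. The first principal component of these 6 libraries carried 55.0% of the variance and separated the lines. Pairs of ml5 libraries differed by 2.20 to 2.69 times counting noise, and ml2 libraries 2 and 3 by 3.01 times. The first ml2 library stood apart, at 12.5 and 8.51 times counting noise from the others of its group. The share of counts in the 50 most abundant genes was 29.0% ± 0.277 in ml5, 25.8% ± 0.736 in ml2 and 29.0% ± 0.303 in WT (SD, n = 3 each, as for every mean ± SD here). The leaf identity of all 6 libraries was plain from the light harvesting genes, whose summed level was 187114 to 193900 CPM in ml5 and 145943 to 160484 CPM in ml2. Of 10 root markers, 4 had no count in either line, and the summed level of the list was 22.9 to 25.7 CPM in ml5 and 18.9 to 23.7 CPM in ml2. Of 11 flower and seed markers, 6 had no count in either line, and their summed level was 2.52 to 3.20 CPM in ml5 and 3.30 to 4.21 CPM in ml2. The part of other organs in the results below was not tested further.

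Each targeted transcript was low in its own line. ML5 (AT1G29400, chromosome 1, 10289998 to 10294630, minus strand, TAIR10.1 gene model) had 0.924, 1.56 and 1.13 CPM in the ml5 libraries, against 232, 212 and 229.7 CPM in the ml2 libraries and 212, 202 and 211 CPM in the WT libraries. The ml5 libraries lay far below both other groups, which lay close together. The fold change was -7.52 ± 0.10 with an adjusted p of 3.79e-31. ML2 (AT2G42890, chromosome 2, 17849819 to 17854553, plus strand) had 83.0, 85.1 and 84.2 CPM in the ml5 libraries, against 5.54, 6.01 and 7.49 CPM in the ml2 libraries and 63.0, 58.7 and 61.8 CPM in the WT libraries. Here the ml2 libraries were the low ones, and the ml5 libraries lay above WT. The fold change of ML2 between the lines was 3.72 ± 0.075 (adjusted p = 7.90e-26), and its level in ml5 exceeded WT by 0.46 on the log2 scale (adjusted p = 1.18e-07). These positions are whole gene models, and whether the remaining reads came from full-length transcripts was not tested.

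Other family members differed little. ML1 had 74.1, 80.1 and 72.8 CPM in ml5, 71.2, 64.1 and 65.8 CPM in ml2 and 75.6, 76.9 and 72.6 CPM in WT, with ml5 above ml2 by 0.18 ± 0.058 (adjusted p = 0.0210). ML4 had 46.8, 41.6 and 48.4 CPM in ml5, 40.3, 34.2 and 40.4 CPM in ml2 and 48.5, 36.4 and 41.9 CPM in WT, with ml5 above ml2 by 0.25 ± 0.084 (adjusted p = 0.0237). Both calls were lost when the 6 libraries were fitted alone, with adjusted p of 0.146 for ML1 and 0.0760 for ML4. They were also lost with scaling by library size alone, at 0.352 and 0.199. Leaving out the second ml5 library, or the second or the third ml2 library, ended the call of ML1 (adjusted p = 0.140, 0.0905 and 0.0688). Leaving out the first or the third ml5 library, or the second ml2 library, ended that of ML4 (0.0741, 0.126 and 0.140). TEL1 and TEL2 had no count in any of the 18 libraries.

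Genes next to the targeted loci were examined, since the method of the knockdowns is not given in the sources used here. Of 19 other models tested within 10 of ML5, 5 were higher and 1 lower in ml5, and of 14 around ML2, 3 were higher and none lower. The shares called were 31.6% around ML5 and 21.4% around ML2, near the 28.7% of all tested genes. Around ML5, the adjoining model COR413IM1, a cold-regulated protein of the chloroplast inner membrane, had 309 ± 5.13 CPM in ml5 and 237 ± 9.49 CPM in ml2, and was higher in ml5 by 0.38 ± 0.046 (adjusted p = 7.83e-08). AT1G29470, 10 models away, was higher by 0.34 ± 0.054 (adjusted p = 1.25e-05). AT1G29310, AT1G29370 and SAUR63 were the other higher models, by 0.32 ± 0.089, 0.24 ± 0.088 and 0.95 ± 0.35, and ERD2 was the lower one, at -0.35 ± 0.13 (adjusted p = 0.00649, 0.0418, 0.0433 and 0.0425). The last 3 calls depended on single libraries: adjusted p reached 0.249 for AT1G29370 and 0.305 for ERD2 without the second ml2 library, and 0.194 for SAUR63 without the third ml2 library. The call of AT1G29370 was also lost without any 1 of the ml5 libraries or the third ml2 library, that of ERD2 without the second or the third library of ml5 or the third of ml2, and that of SAUR63 without the first or the third ml5 library or the first ml2 library (adjusted p from 0.0610 to 0.259). Around ML2, the adjoining AT2G42900 had 2.73 ± 0.302 CPM in ml5 and 1.68 ± 0.314 CPM in ml2 and was higher by 0.70 ± 0.22 (adjusted p = 0.0156), a call that was lost in the fit of the 6 libraries (adjusted p = 0.0596) and without library 3 of ml5 or of ml2 (0.0822 and 0.0782). PAR1, a shade-induced regulator without a basic DNA-binding domain, lies 3 models from ML2 and was higher by 1.40 ± 0.22 (adjusted p = 6.96e-06). Its levels were 8.19 ± 0.808 CPM in ml5, 3.10 ± 0.779 CPM in ml2 and 3.02 ± 0.551 CPM in WT, so ml5 was apart from WT and ml2 was near it. MPK20, a mitogen-activated protein kinase gene 2 models from ML2, was higher by 0.28 ± 0.068 (adjusted p = 0.00167).

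Across the transcriptome the lines differed broadly and mostly by small amounts. Of 19493 tested genes, 5589 passed, which is 28.7%. Of these, 2762 were higher in ml5 (14.2% of tested genes) and 2827 were lower (14.5%). Fewer than 1.5-fold separated the lines at 3883 of the called genes (69.5%), and the median absolute log2 fold change of called genes was 0.398. Large differences were lopsided toward lower levels in ml5, with 277 genes at least 2-fold higher (1.42%) and 540 at least 2-fold lower (2.77%). At 4-fold the counts were 38 higher and 210 lower. In 3592 genes (18.4%) all ml5 libraries lay above all ml2 libraries, and in 3471 (17.8%) they all lay below. With 3 libraries against 3, the smallest 2-sided exact permutation p for a single gene is 0.1, so calls rest on the spread shared across genes by the model. Scaling by library size alone gave 1657 higher and 4524 lower genes, so 26.8% of calls were higher against 49.4% with the scaling used here, and it shifted the median of all genes to -0.086 from 0.0070. Without the first ml2 library, fitted among the remaining libraries of both lines, 3188 genes were higher and 3202 lower.

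**Figure D1:**
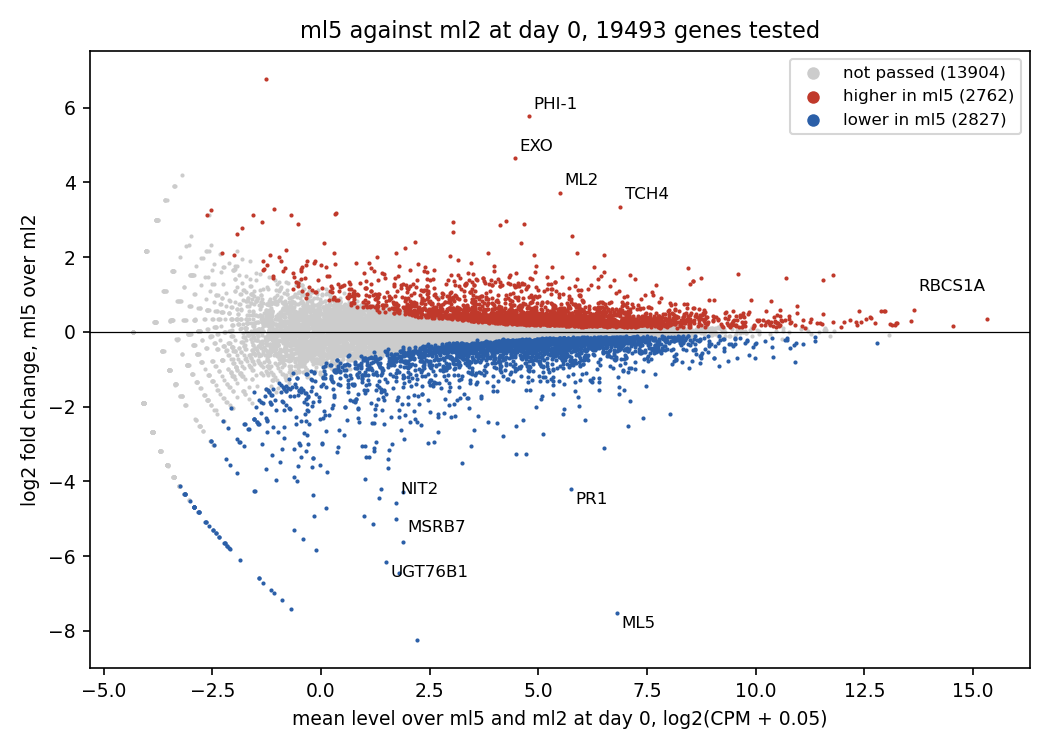
Log2 fold change of ml5 over ml2 at day 0 (y axis) against the mean level over both lines, log2(CPM + 0.05) (x axis), 1 point per tested gene, with genes that passed in colour. The 2762 higher and 2827 lower genes hug the zero line at high levels, and the strong falls outnumber the strong rises, with ML5, PR1, UGT76B1, MSRB7 and NIT2 far below and PHI-1, EXO, ML2 and TCH4 far above.

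Genes named below as the largest rises and falls were ranked among those with a RefSeq symbol. Genes without one lay among the largest differences too, such as AT2G45220, with 0.0669 CPM in ml5 and 6.77 CPM in ml2, and AT1G50040, with 14.3 CPM in ml5 and 1.86 CPM in ml2 (means). PHI-1 (EXORDIUM-like 1, AT1G35140, chromosome 1, 12851983 to 12853235, plus strand), of a family of secreted proteins linked to brassinosteroid-promoted growth, had 53.8, 53.4 and 55.3 CPM in the ml5 libraries, against 0.952, 1.09 and 0.916 CPM in the ml2 libraries and 0.853, 0.688 and 1.37 CPM in the WT libraries. Only the ml5 libraries were high, and ml2 and WT overlapped. The fold change was 5.77 ± 0.12 (adjusted p = 7.90e-26). Its relative EXO (AT4G08950, chromosome 4, 5740219 to 5741591, plus strand), which promotes leaf cell expansion, had 39.8, 42.7 and 43.9 CPM in the ml5 libraries, against 1.29, 1.47 and 2.26 CPM in the ml2 libraries and 2.30, 1.83 and 1.17 CPM in the WT libraries, again high in ml5 alone. It rose by 4.64 ± 0.12 (adjusted p = 4.86e-23). The touch gene TCH4, a xyloglucan endotransglucosylase that remodels wall xyloglucan, had 218, 219.9 and 209 CPM in the ml5 libraries, against 17.8, 23.3 and 22.4 CPM in the ml2 libraries and 25.4, 28.7 and 23.7 CPM in the WT libraries. It was 3.35 ± 0.069 higher in ml5 (adjusted p = 8.42e-26), and its ml2 and WT libraries lay close together.

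Other strong rises also had ml5 as the highest group. EXL5, a further EXORDIUM-like gene, had 34.8, 35.2 and 32.1 CPM in ml5, 5.38, 3.66 and 3.99 CPM in ml2 and 9.84, 10.3 and 11.2 CPM in WT and rose by 2.97 ± 0.11. The arabinogalactan protein gene AGP17 had 45.1, 44.9 and 44.4 CPM in ml5, 5.49, 6.28 and 6.47 CPM in ml2 and 25.3, 29.0 and 28.6 CPM in WT and rose by 2.88 ± 0.084. Unlike PHI-1 and EXO, both were also lower in ml2 than in WT, with log2 fold changes of -1.27 for EXL5 and -2.18 for AGP17. The transcription factor gene DREB26 had 31.3, 30.7 and 28.7 CPM in ml5, 3.53, 4.81 and 4.20 CPM in ml2 and 7.15, 9.70 and 7.18 CPM in WT and rose by 2.85 ± 0.12. EXLA1, an expansin-like protein, had 38.4, 41.0 and 42.2 CPM in ml5, 6.55, 8.68 and 8.14 CPM in ml2 and 9.71, 11.5 and 10.4 CPM in WT and rose by 2.38 ± 0.083. In each of these 4 genes the ml5 libraries lay above every library of ml2 and of WT. BZIP61, a bZIP factor, had 23.4 ± 2.65 CPM in ml5, 5.39 ± 0.283 CPM in ml2 and 18.4 ± 0.867 CPM in WT and rose by 2.12 ± 0.12. LRX3, a leucine-rich repeat extensin of the cell wall, had 135, 149 and 159 CPM in ml5, 49.6, 26.7 and 29.4 CPM in ml2 and 71.4, 62.5 and 64.5 CPM in WT and rose by 2.07 ± 0.12. The first ml2 library was the highest of its group for LRX3, and still lay below WT and ml5. The largest adjusted p among these 6 genes was that of LRX3, 2.06e-14.

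The EXORDIUM family, looked at as a whole after PHI-1 and EXO were seen, did not move evenly. Of its 8 members, 7 were tested and 6 were higher in ml5. EXL3 had 129 ± 5.74 CPM in ml5, 45.9 ± 6.36 CPM in ml2 and 58.1 ± 2.89 CPM in WT and rose by 1.49 ± 0.084 (adjusted p = 6.13e-15). EXL4 and EXL2 rose by 0.30 ± 0.054 and 0.21 ± 0.052 (adjusted p = 7.85e-05 and 0.00268), and the call of EXL2 was lost in the fit of the 6 libraries (adjusted p = 0.0532). EXL7 was at 0.577 ± 0.311 CPM in ml5 and 0.772 ± 0.484 CPM in ml2 and did not pass (adjusted p = 0.624).

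Among genes with a symbol, the largest fall after ML5 itself was that of UGT76B1. UGT76B1, a glucosyltransferase that acts on salicylic acid, N-hydroxypipecolic acid and isoleucic acid, had 0, 0 and 0.199 CPM in the ml5 libraries, against 6.22, 4.64 and 5.55 CPM in the ml2 libraries and 0.328, 0.153 and 0.261 CPM in the WT libraries. Only ml2 was high. Because the 3 ml5 libraries held 3 counts in all against 299 in ml2, the ratio of ml2 over ml5 was 77.9 with a 95% exact counting interval of 26.4 to 380 (counting error only; adjusted p = 4.40e-13). PR1 (AT2G14610, chromosome 2, 6241640 to 6242541, minus strand), the classical marker gene of salicylic acid signalling, had 5.85, 5.24 and 5.50 CPM in the ml5 libraries, against 94.4, 109 and 101 CPM in the ml2 libraries and 16.4, 14.2 and 15.7 CPM in the WT libraries. The groups were fully apart, with ml2 above WT and ml5 below it. The fold change of PR1 was -4.20 ± 0.092 (adjusted p = 3.37e-25).

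MSRB7 (AT4G21830, chromosome 4, 11584346 to 11585542, minus strand), a methionine sulfoxide reductase that repairs oxidised methionine, had 0.154, 0.204 and 0.0663 CPM in the ml5 libraries, against 6.55, 7.81 and 7.22 CPM in the ml2 libraries and 0.853, 1.22 and 1.5004 CPM in the WT libraries, and its fold change was -5.61 ± 0.34 (adjusted p = 3.02e-14). MSRB8 beside it had 0.308, 0.136 and 0.597 CPM in ml5, 6.16, 7.97 and 6.84 CPM in ml2 and 0.590, 1.15 and 0.718 CPM in WT, a fold change of -4.29 ± 0.33 (adjusted p = 8.29e-12). In both, ml2 lay above all other libraries. The 9 members of the MSRB family were then examined, after these values had been seen. MSRB9 had 2.36 ± 0.138 CPM in ml5, 19.5 ± 0.870 CPM in ml2 and 3.39 ± 0.654 CPM in WT and a fold change of -3.04 ± 0.14 (adjusted p = 1.40e-16). MSRB6, MSRB4 and MSRB5 were also lower, with fold changes of -0.59 ± 0.10, -0.51 ± 0.12 and -0.37 ± 0.086 and adjusted p up to 0.00129. MSRB1, MSRB2 and MSRB3 did not pass, at 0.090, 0.029 and -0.13, though without the first ml2 library MSRB3 did, at -0.25 (adjusted p = 0.00301). MSRB7, MSRB8 and MSRB9 are near-identical neighbours, so how the authors' counting divided reads between them is uncertain.

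NIT2, a nitrilase that turns indole-3-acetonitrile into auxin and related acids, had 0.308, 0.204 and 0.265 CPM in the ml5 libraries, against 5.88, 6.39 and 6.63 CPM in the ml2 libraries and 1.57, 3.29 and 2.48 CPM in the WT libraries, and its fold change was -4.58 ± 0.22 (adjusted p = 2.35e-16). NIT2 has near-identical copies, which makes its exact level uncertain. MDHAR, which regenerates ascorbate, had 4.70, 5.65 and 4.24 CPM in ml5, 42.5, 49.3 and 50.2 CPM in ml2 and 5.71, 4.51 and 5.35 CPM in WT, with ml5 and WT overlapping and ml2 high. CHI, a chitinase gene, had 4.47, 4.22 and 4.11 CPM in ml5, 43.0, 39.9 and 39.3 CPM in ml2 and 5.05, 4.97 and 5.22 CPM in WT, with ml2 again the only high group. Their fold changes were -3.28 ± 0.11 and -3.26 ± 0.094, with adjusted p of 6.41e-20 and 4.46e-22. The peroxidase gene Prx37 had 0.403 ± 0.459 CPM in ml5, 5.35 ± 0.707 CPM in ml2 and 0.745 ± 0.235 CPM in WT and a fold change of -3.65 ± 0.30 (adjusted p = 3.61e-11). JRG21, a jasmonate-regulated dioxygenase, had 0.484 ± 0.187 CPM in ml5, 5.28 ± 1.16 CPM in ml2 and 0.818 ± 0.118 CPM in WT and a fold change of -3.41 ± 0.24 (adjusted p = 8.57e-13).

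**Figure D2:**
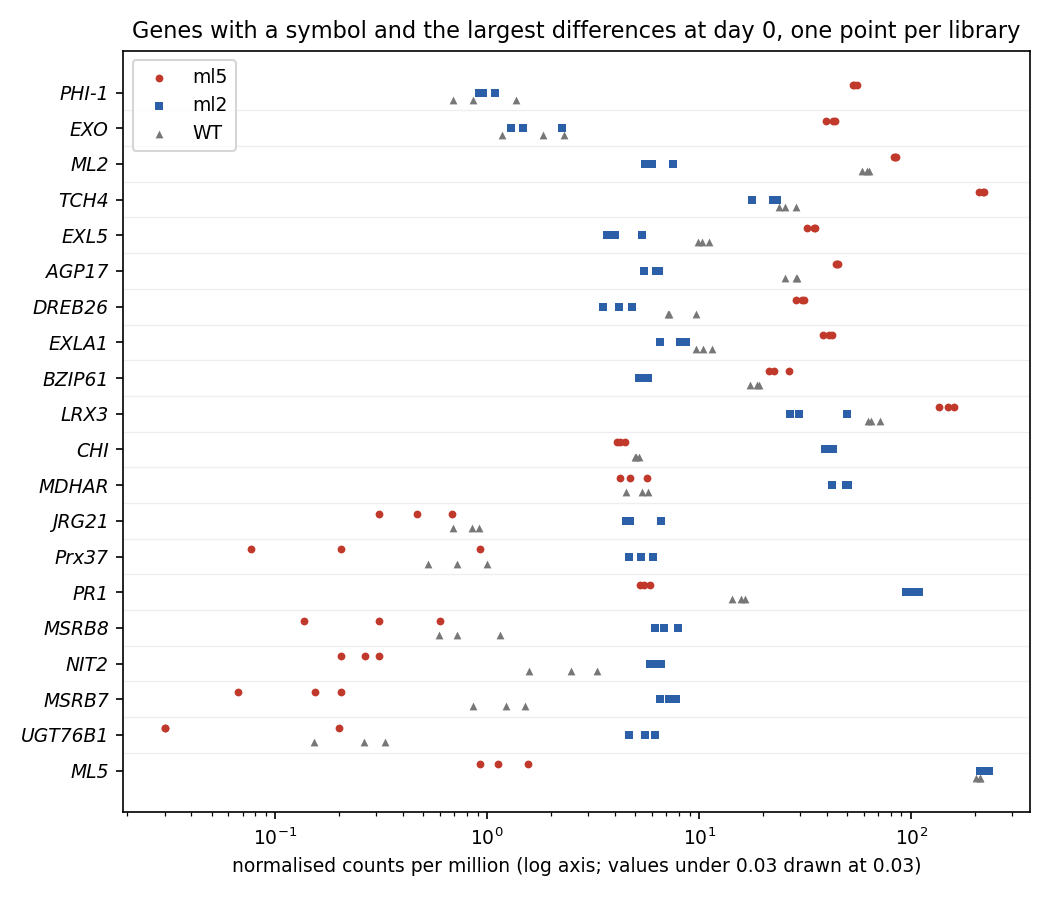
Normalised level in CPM on a log axis (x axis) for the 10 genes with the largest rises and the 10 with the largest falls in ml5 against ml2 at day 0, among genes with a symbol (y axis), 1 point per library for ml5, ml2 and WT. For PHI-1, EXO and TCH4 the ml5 points stand alone on the right, and for UGT76B1, MSRB8, MDHAR and CHI the ml2 points stand alone there.

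The upstream sequences of these genes were read because genes with similar behaviour may share regulatory motifs. Printed here are the 250 bases before the annotated start of the 2 strongest rises other than ML2 and of MSRB7, a strong fall, from RefSeq TAIR10.1, 5′ to 3′ along the gene, with motif matches in capitals. Motifs searched on both strands were TTGAC (the core of the W-box bound by WRKY factors), TGACG (TGA factors), CGCG (the core read by calmodulin-binding CAMTA factors), CACGTG (G-box) and GCCGCC (GCC box of ERF factors). TTGAC and TGACG overlap wherever TTGACG occurs.
PHI-1 (chromosome 1, 12851733 to 12851982, plus strand): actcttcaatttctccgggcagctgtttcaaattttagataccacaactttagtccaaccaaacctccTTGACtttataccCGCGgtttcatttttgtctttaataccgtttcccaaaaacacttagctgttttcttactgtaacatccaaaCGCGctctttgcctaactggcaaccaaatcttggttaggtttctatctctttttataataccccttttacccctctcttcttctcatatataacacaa
EXO (chromosome 4, 5739969 to 5740218, plus strand): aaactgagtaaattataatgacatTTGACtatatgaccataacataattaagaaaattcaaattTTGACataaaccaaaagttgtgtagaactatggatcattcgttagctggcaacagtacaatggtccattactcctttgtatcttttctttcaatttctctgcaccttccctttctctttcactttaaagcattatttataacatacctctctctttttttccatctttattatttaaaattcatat
MSRB7 (chromosome 4, 11585543 to 11585792, minus strand): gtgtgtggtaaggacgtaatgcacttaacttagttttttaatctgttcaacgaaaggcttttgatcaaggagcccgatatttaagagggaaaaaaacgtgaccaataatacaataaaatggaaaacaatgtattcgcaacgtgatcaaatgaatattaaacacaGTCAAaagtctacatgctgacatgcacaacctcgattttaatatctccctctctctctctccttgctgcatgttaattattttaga
PHI-1 holds TTGAC and 2 matches of CGCG, EXO holds 2 matches of TTGAC, and MSRB7 holds 1, which lies on the opposite strand as GTCAA. Among the 9 strongest rises with a symbol other than ML2, 4 windows held TTGAC, 3 TGACG, 2 CGCG and 1 CACGTG. Among the windows of 8 of the strongest falls with a symbol, 4 held TTGAC, 1 TGACG and 1 CGCG. Over the windows of 19336 tested genes, 45.1% held TTGAC, 19.4% TGACG, 10.9% CGCG, 7.37% CACGTG and 2.02% GCCGCC. A match is a run of letters and not a bound site.

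Genes of salicylic acid and immunity were lower in ml5 than in ml2 across nearly the whole list. Of 39 members tested, 33 fell, 1 rose and 5 did not pass, and the median log2 fold change was -0.80 against 0.0070 for all genes. Of the regulators of salicylic acid and its relative pipecolic acid, FMO1, which makes N-hydroxypipecolic acid, had 0.253 ± 0.0937 CPM in ml5, 4.86 ± 0.442 CPM in ml2 and 0.411 ± 0.0402 CPM in WT, a fold change of -4.20 ± 0.27 (adjusted p = 1.13e-13). ALD1, the first enzyme of that route, had 0.666 ± 0.256 CPM in ml5, 5.49 ± 0.345 CPM in ml2 and 0.549 ± 0.166 CPM in WT and a fold change of -3.01 ± 0.29 (adjusted p = 1.20e-09). ICS1, which makes the bulk of salicylic acid, differed less, at 19.7 ± 0.789 CPM in ml5, 32.5 ± 3.66 CPM in ml2 and 25.7 ± 1.18 CPM in WT with a fold change of -0.72 ± 0.093 (adjusted p = 2.76e-07). For FMO1 and ALD1, ml5 lay near WT and ml2 was the high group, whereas WT lay between the lines for ICS1.

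Pathogenesis-related genes lie downstream of salicylic acid. PR2, a glucanase, had 38.9, 38.9 and 41.9 CPM in the ml5 libraries, against 235, 221 and 227 CPM in the ml2 libraries and 41.8, 43.5 and 44.2 CPM in the WT libraries, and PR5, a thaumatin-like protein, had 23.2, 22.2 and 20.5 CPM in ml5, 121, 111 and 108 CPM in ml2 and 21.98, 22.4 and 18.7 CPM in WT. The ml2 libraries were high for both, and ml5 overlapped WT for both, though only narrowly for PR2. Their fold changes were -2.51 ± 0.055 and -2.37 ± 0.083 (adjusted p = 3.37e-25 and 6.25e-20). The transcription factor WRKY70, which promotes salicylic acid responses, had 47.8, 52.1 and 44.9 CPM in ml5, 125, 122 and 117 CPM in ml2 and 88.2, 95.2 and 94.1 CPM in WT, with WT between the lines and a fold change of -1.33 ± 0.058 (adjusted p = 1.86e-17). The single member that rose was FLS2 (AT5G46330), the receptor for bacterial flagellin, at 43.9 ± 1.71 CPM in ml5, 36.8 ± 3.81 CPM in ml2 and 41.0 ± 1.71 CPM in WT and 0.25 ± 0.077 (adjusted p = 0.0125), and this call was lost in the fit of the 6 libraries (0.0678) and without the third ml5, second ml2 or the third ml2 library (0.0687, 0.0654 and 0.0673). FMO1, ALD1, ICS1 and FLS2 were singled out after their values were seen.

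The camalexin and indole defence list fell nearly throughout. Of 18 members tested, 17 fell, none rose and NIT3 did not pass, with a median of -0.71. The count of 17 held in every alternative tried. PAD3, which catalyses the last step of camalexin synthesis, had 8.47, 9.05 and 9.62 CPM in the ml5 libraries, against 58.1, 62.2 and 59.1 CPM in the ml2 libraries and 6.30, 5.65 and 8.55 CPM in the WT libraries. The ml2 libraries were the high ones, and the fold change was -2.72 ± 0.10 (adjusted p = 3.53e-19). CYP79B2, which commits tryptophan to indole compounds, had 12.9, 13.00 and 13.4 CPM in ml5, 40.4, 40.7 and 35.7 CPM in ml2 and 24.5, 25.9 and 24.3 CPM in WT and a fold change of -1.57 ± 0.076 (adjusted p = 2.21e-16), with WT between the lines.

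Jasmonate genes fell as well. Of 28 members of the signalling and response list, 21 fell, 1 rose and 6 did not pass (median -0.71), and of 15 synthesis genes 10 fell and 5 did not pass (median -0.28). The defensin gene PDF1.2 had 99.5, 92.2 and 88.3 CPM in the ml5 libraries, against 374, 475 and 434 CPM in the ml2 libraries and 104, 103 and 102 CPM in the WT libraries, with ml2 high and a fold change of -2.20 ± 0.072 (adjusted p = 1.11e-20). Its near-identical copy PDF1.2b had 27.7 ± 3.42 CPM in ml5, 92.6 ± 11.4 CPM in ml2 and 17.3 ± 0.952 CPM in WT and fell by 1.75 ± 0.088, and reads of the pair may be divided between them. NATA1, an acetyltransferase induced by jasmonate, had 14.9, 15.1 and 14.7 CPM in ml5, 53.5, 52.7 and 48.1 CPM in ml2 and 4.92, 4.89 and 5.48 CPM in WT, so that both lines lay above WT and ml2 the farther, with a fold change of -1.79 ± 0.081 (adjusted p = 3.79e-17). Among synthesis genes, OPR3, the reductase of the peroxisomal branch, had 148, 135 and 145 CPM in ml5, 215, 231 and 222 CPM in ml2 and 54.5, 54.5 and 55.4 CPM in WT. OPR3 was also above WT in both lines, and the fold change of ml5 over ml2 was -0.64 ± 0.050 (adjusted p = 1.00e-11). AOC3, an allene oxide cyclase, had 13.4 ± 0.698 CPM in ml5, 24.6 ± 1.67 CPM in ml2 and 3.24 ± 0.433 CPM in WT and OPCL1, a coenzyme A ligase, 100.1 ± 5.22 CPM in ml5, 158 ± 6.02 CPM in ml2 and 93.6 ± 0.231 CPM in WT. Their fold changes were -0.87 ± 0.10 and -0.66 ± 0.049 (adjusted p = 1.38e-08 and 3.93e-12). The single riser was JAZ3, a jasmonate repressor, at 0.32 ± 0.067 (adjusted p = 4.58e-04, named after its value was seen).

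Chaperones of the endoplasmic reticulum fold secreted proteins and are induced with defence secretion. Of 16 tested, 14 fell, none rose and 2 did not pass, with a median of -0.48. BIP3, an inducible binding protein, had 0.693, 1.36 and 0.597 CPM in the ml5 libraries, against 5.99, 7.16 and 6.36 CPM in the ml2 libraries and 1.71, 1.22 and 1.5004 CPM in the WT libraries, with a fold change of -2.86 ± 0.24 (adjusted p = 7.43e-11). BIP2 had 35.04 ± 1.74 CPM in ml5, 59.6 ± 6.96 CPM in ml2 and 39.2 ± 0.766 CPM in WT and CRT3, a calreticulin, 199 ± 8.85 CPM in ml5, 281 ± 6.30 CPM in ml2 and 135 ± 1.92 CPM in WT. Their fold changes were -0.77 ± 0.071 and -0.50 ± 0.044 (adjusted p = 5.32e-10 and 2.03e-10). For BIP2 and BIP3 ml5 did not pass against WT (adjusted p = 0.0855 and 0.0712), while ml5 was above WT for CRT3 by 0.56 (adjusted p = 1.72e-11). Over the list, ml5 against WT ran from -0.74 to 0.56 on the log2 scale, and members that passed lay on both sides of WT.

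Detoxification and ethylene lists were mixed but leaned lower. Of 30 reactive oxygen and detoxification genes, 13 fell (43.3%, against 14.5% of all tested genes), 3 rose (10%, against 14.2%) and 14 did not pass, with a median of -0.17. GSTF6, a glutathione transferase, had 249, 237 and 229.6 CPM in ml5, 425, 499 and 465 CPM in ml2 and 51.1, 57.0 and 56.8 CPM in WT, high in both lines relative to WT and highest in ml2, with a fold change of -0.96 ± 0.057 (adjusted p = 2.50e-14). GSTF7, its close copy with which it may share reads, and GSTF2 had fold changes of -0.73 ± 0.053 and -0.67 ± 0.043 (adjusted p = 2.19e-12 and 1.12e-13). Of 30 ethylene and ERF genes, 14 fell (46.7%), 3 rose (10%) and 13 did not pass, with a median of -0.070. The ethylene response factors that led the fall were ERF-1 with 14.9, 15.8 and 14.99 CPM in ml5, 40.5, 36.3 and 39.5 CPM in ml2 and 18.2, 16.8 and 16.4 CPM in WT, ERF4 with 35.5 ± 1.03 CPM in ml5 and 68.4 ± 4.30 CPM in ml2, and ERF2 with 42.9 ± 0.873 CPM in ml5 and 80.6 ± 7.43 CPM in ml2. Their fold changes were -1.35 ± 0.069, -0.95 ± 0.067 and -0.91 ± 0.066, and the largest adjusted p was 2.34e-12.

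**Figure D3:**
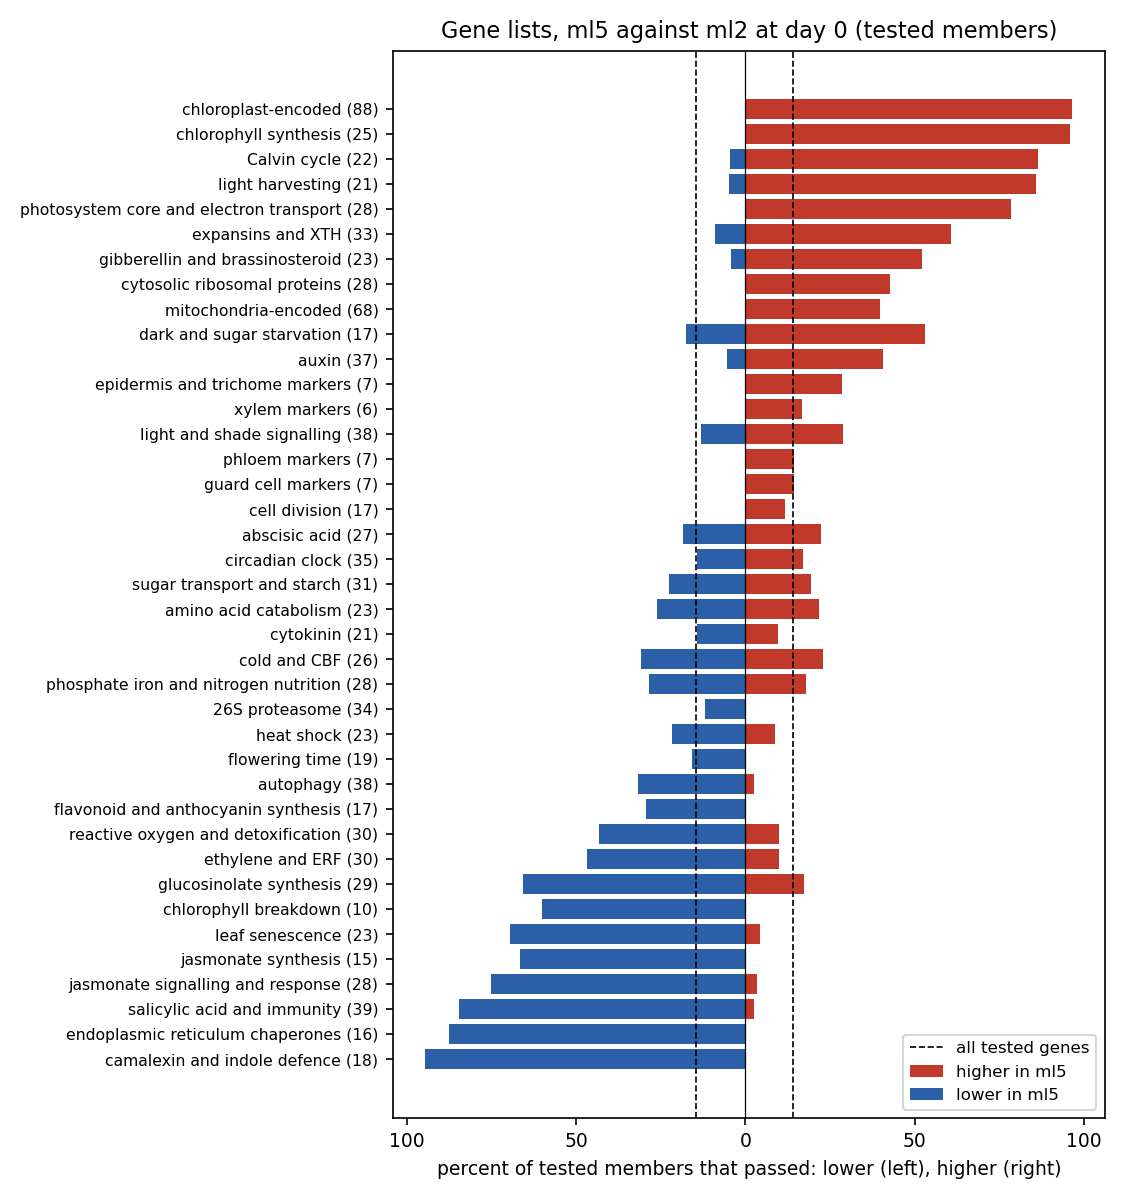
Percent of tested members of each gene list that were higher (right) or lower (left) in ml5 than in ml2 at day 0 (x axis), with the number of tested members after each list name (y axis) and the share over all tested genes as dashed lines at 14.2% and 14.5%. Camalexin, endoplasmic reticulum chaperones, salicylic acid and jasmonate lists reach far left, and chloroplast-encoded genes, chlorophyll synthesis, Calvin cycle and light harvesting far right.

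Senescence genes were lower in ml5 than in ml2 before any darkness. Of 23 tested, 16 fell, 1 rose and 6 did not pass, with a median of -0.50. SAG13, a senescence-associated dehydrogenase, had 8.09, 8.85 and 7.76 CPM in ml5, 39.8, 46.6 and 39.6 CPM in ml2 and 6.76, 8.48 and 9.85 CPM in WT, with ml5 overlapping WT and a fold change of -2.35 ± 0.10 (adjusted p = 6.80e-18). NAP, a NAC factor that promotes leaf senescence, had 39.3, 38.03 and 32.4 CPM in ml5, 84.1, 86.5 and 94.3 CPM in ml2 and 60.7, 57.8 and 61.8 CPM in WT, with WT between the lines and a fold change of -1.27 ± 0.062 (adjusted p = 2.63e-16). SAG12, a widely used late senescence marker, was at 0 CPM in ml5, ml2 and WT at day 0, so the lines could not be compared for it. The member that rose was WRKY22, by 0.44 ± 0.10 (adjusted p = 6.03e-04). WRKY75, chosen after its value was seen, had the largest fall, at 0.241 ± 0.130 CPM in ml5, 3.67 ± 0.202 CPM in ml2 and 0.396 ± 0.120 CPM in WT (fold change -3.93 ± 0.29, adjusted p = 3.63e-12). Against WT, members of this list ran from -1.26 to 2.55 in ml5 on the log2 scale, and most lay above WT. Low levels in ml5 relative to ml2 were therefore mostly not low relative to WT. The senescence list shares WRKY70 with the immunity list. Of 10 chlorophyll breakdown genes, 6 fell (60%, against 14.5% of all tested genes) and none rose (median -0.19). Among them NYE1, which removes magnesium from chlorophyll, had 19.5, 18.6 and 17.97 CPM in ml5, 25.99, 27.7 and 25.9 CPM in ml2 and 23.4, 24.4 and 23.0 CPM in WT and fell by 0.51 ± 0.066 (adjusted p = 3.51e-07). Its paralogue NYE2 and the chlorophyllase CLH1 had fold changes of -1.11 ± 0.14 and -0.97 ± 0.057 (adjusted p = 1.05e-07 and 1.77e-14).

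Aliphatic glucosinolates, defence compounds made from methionine, gave a different order of groups. Of 29 glucosinolate genes, 19 fell, 5 rose and 5 did not pass, with a median of -0.53. CYP79F1, which makes aldoximes from chain-elongated methionine, had 122, 133 and 132 CPM in the ml5 libraries, against 308, 262 and 283 CPM in the ml2 libraries and 344, 336 and 341 CPM in the WT libraries. Here ml2 lay below WT and ml5 far below both, with a fold change of -1.14 ± 0.056 between the lines (adjusted p = 2.63e-16). IPMI1 and BCAT4, enzymes of methionine chain elongation, had 34.9 ± 0.950 CPM in ml5, 75.6 ± 2.22 CPM in ml2 and 102 ± 0.269 CPM in WT and 189 ± 8.004 CPM in ml5, 346 ± 1.29 CPM in ml2 and 353 ± 5.80 CPM in WT. Their fold changes were -1.12 ± 0.055 and -0.87 ± 0.048 (adjusted p = 3.38e-16 and 4.07e-15). Of 17 flavonoid and anthocyanin genes, 5 fell (29.4%, against 14.5% of all tested genes) and none rose (median -0.13). PAL1, which opens the phenylpropanoid route, had 16.3, 18.9 and 15.9 CPM in ml5, 30.0, 25.2 and 26.5 CPM in ml2 and 35.2, 31.3 and 34.2 CPM in WT, lowest in ml5, and fell by 0.68 ± 0.081 (adjusted p = 8.60e-08).

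Wall-loosening genes were higher in ml5. Of 33 expansins and xyloglucan enzymes (XTH), 20 rose, 3 fell and 10 did not pass, with a median of 0.58, and PHI-1 and EXO are not on this list. Beside TCH4 and EXLA1, XTH4 had 135, 141 and 133 CPM in ml5, 44.6, 43.0 and 46.2 CPM in ml2 and 64.0, 70.7 and 69.9 CPM in WT, in which ml5 was above and ml2 below WT, and rose by 1.61 ± 0.055 (adjusted p = 3.94e-20). XTH33, picked after its value was seen, had 2.18 ± 0.197 CPM in ml5, 0.236 ± 0.133 CPM in ml2 and 0.225 ± 0.0901 CPM in WT, a rise of 3.16 ± 0.44 (adjusted p = 1.16e-06). The members that fell were XTH24, XTH31 and EXPA1, with fold changes of -0.47 ± 0.047, -0.33 ± 0.085 and -0.24 ± 0.052. EXPA1 is an abundant leaf expansin and stood at 243 ± 4.93 CPM in ml5, 288 ± 12.6 CPM in ml2 and 518 ± 4.72 CPM in WT.

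Growth hormone lists shifted upward by smaller amounts. Of 37 auxin genes, 15 rose (40.5%, against 14.2% of all tested genes), 2 fell (5.41%, against 14.5%) and 20 did not pass, with a median of 0.25. GH3.6 and GH3.5, which conjugate auxin to amino acids and respond quickly to it, had 11.1 ± 1.19 CPM in ml5, 5.65 ± 0.505 CPM in ml2 and 3.96 ± 0.763 CPM in WT and 12.3 ± 1.97 CPM in ml5, 7.63 ± 1.22 CPM in ml2 and 5.20 ± 0.284 CPM in WT. They rose by 0.99 ± 0.11 and 0.69 ± 0.10, and the auxin efflux carrier PIN3 by 0.58 ± 0.082, with adjusted p up to 1.92e-06. Of 23 gibberellin and brassinosteroid genes, 12 rose (52.2%), 1 fell (4.35%) and 10 did not pass, with a median of 0.19. The brassinosteroid enzyme CPD had 399, 406 and 383 CPM in ml5, 302, 294 and 294 CPM in ml2 and 294, 303 and 295 CPM in WT, with ml2 and WT overlapping and a rise of 0.42 ± 0.040 (adjusted p = 1.05e-09). The brassinosteroid receptor BRI1 had 121, 123 and 132 CPM in ml5, 96.7, 72.9 and 76.3 CPM in ml2 and 132, 128 and 129.8 CPM in WT, where ml5 was near WT, and rose by 0.61 ± 0.078 (adjusted p = 2.46e-07). The first ml2 library was the highest of its group for BRI1. GASA6, a gibberellin-regulated peptide, rose by 0.67 ± 0.079 (adjusted p = 6.18e-08). The exception was the gibberellin receptor gene GID1B, which fell by 0.44 ± 0.11 (adjusted p = 0.00345).

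Nuclear genes of photosynthesis were higher in ml5 by modest amounts. Of 21 light harvesting genes, 18 rose, 1 fell and 2 missed the threshold (median 0.26). Of 28 photosystem core and electron transport genes, 22 rose and none fell (median 0.26), and of 22 Calvin cycle genes 19 rose and 1 fell (median 0.26). LHCB6, an antenna protein of photosystem II, had 6302, 6202 and 6398 CPM in the ml5 libraries, against 4342, 4385 and 4188 CPM in the ml2 libraries and 6689, 6799 and 6708 CPM in the WT libraries. The ml2 libraries were the low ones, and the rise was 0.55 ± 0.040 (adjusted p = 2.37e-12). RBCS1A, the small subunit of Rubisco, had 15814, 15072 and 15458 CPM in the ml5 libraries, against 10359, 10613 and 9914 CPM in the ml2 libraries and 15131, 15429 and 15098 CPM in the WT libraries, with ml5 overlapping WT, and rose by 0.59 ± 0.036 (adjusted p = 4.53e-14). FED A, the leaf ferredoxin, had 1052 ± 23.1 CPM in ml5, 755 ± 45.3 CPM in ml2 and 1193 ± 7.87 CPM in WT and PETE2, a plastocyanin, 3519.6 ± 127 CPM in ml5, 2515 ± 188 CPM in ml2 and 3474 ± 62.3 CPM in WT. Their rises were 0.48 ± 0.041 and 0.48 ± 0.043 (adjusted p = 1.00e-10 and 2.22e-10). GAPA2, a Calvin cycle dehydrogenase, lay below WT in both lines, at 917 ± 37.3 CPM in ml5, 672 ± 23.9 CPM in ml2 and 1299 ± 30.1 CPM in WT, and was higher in ml5 by 0.45 ± 0.047 (adjusted p = 6.88e-09). Relative to WT, members of the Calvin cycle list ran from -1.06 to 0.33 in ml5 on the log2 scale, and most lay below WT. The overlap of ml5 with WT at RBCS1A was therefore not typical of the list. LHCB1.1 and LHCB1.4 were higher by 0.55 ± 0.047 and 0.56 ± 0.041, but LHCB1 and Rubisco small subunit genes have near-identical copies that may share reads. The exceptions that fell were LHCB7 and the Calvin cycle regulator CP12-2, with fold changes of -0.32 ± 0.11 and -0.25 ± 0.058 (adjusted p = 0.0261 and 0.00126). The call of LHCB7 was lost without the second or the third ml5 library, or the second or the third ml2 library (adjusted p = 0.0860, 0.0670, 0.0609 and 0.0850).

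Chlorophyll synthesis genes rose nearly throughout. Of 25 tested genes, 24 rose, none fell and PPOX (AT4G01690) did not pass, with a median of 0.51. PPOX was at 0.12 (adjusted p = 0.0681), and passed without the first ml2 library (adjusted p = 0.0480). CRD1, the cyclase that closes the fifth ring, had 2449, 2436 and 2488 CPM in the ml5 libraries, against 1501, 1536 and 1508 CPM in the ml2 libraries and 2305, 2313 and 2339 CPM in the WT libraries. Its ml5 libraries lay above WT, though ml5 against WT did not pass (adjusted p = 0.0517). The ml5 libraries lay far above ml2, and the rise of CRD1 between the lines was 0.70 ± 0.034 (adjusted p = 2.73e-16). PORB, a light-dependent protochlorophyllide reductase, had 1190.1, 1209 and 1233 CPM in ml5, 706, 667 and 654 CPM in ml2 and 803, 784 and 812 CPM in WT, high in ml5 relative to WT and low in ml2, and rose by 0.84 ± 0.042 (adjusted p = 4.50e-16). HEME2, a uroporphyrinogen decarboxylase, had 178 ± 9.37 CPM in ml5, 106 ± 3.88 CPM in ml2 and 145 ± 4.87 CPM in WT and rose by 0.75 ± 0.051 (adjusted p = 5.11e-13). Relative to WT, members of the list ran from -0.52 to 1.36 in ml5 on the log2 scale. Members that passed against WT lay on both sides of it, so the list was not raised over WT as a whole. In bulk leaf samples such as these, fewer cells of a type and less RNA per cell cannot be told apart.

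Transcripts encoded in the chloroplast were higher still. Of 88 tested, 85 rose, none fell and 3 did not pass, with a median of 1.28. Several of these identifiers form pairs with identical values, among them a pair that did not pass. The 88 are therefore not all separate measurements. ATCG00140 had 77.8, 83.3 and 81.6 CPM in ml5, 32.4, 34.2 and 36.5 CPM in ml2 and 53.7, 65.6 and 62.2 CPM in WT, with WT between the lines, and rose by 1.23 ± 0.072 (adjusted p = 1.75e-14). ATCG00070 had 48.5, 52.1 and 51.2 CPM in ml5, 21.3, 22.5 and 24.5 CPM in ml2 and 39.5, 48.2 and 41.7 CPM in WT and rose by 1.15 ± 0.095 (adjusted p = 4.22e-11). Chloroplast identifiers took 0.742% ± 0.0642 of all counts in ml5, 0.309% ± 0.0490 in ml2 and 0.457% ± 0.0884 in WT. Mitochondrial identifiers took 0.0306% ± 0.00185 in ml5, 0.0187% ± 0.000459 in ml2 and 0.0245% ± 0.00338 in WT. Of 68 mitochondrial genes tested, 27 rose (39.7%, against 14.2% of all tested genes), none fell and 41 did not pass, with a median of 0.69. These too include a pair of identifiers with identical values. ATMG01190 had 18.6, 22.4 and 19.0 CPM in ml5, 11.1, 9.39 and 7.87 CPM in ml2 and 11.6, 17.5 and 18.1 CPM in WT and rose by 1.08 ± 0.14 (adjusted p = 3.79e-07). Organelle transcripts lack the poly(A) tails of nuclear messages, their share depends on how RNA was enriched, and the part of that step was not tested. Leaving organelle genes out changed the count of genes at least 2-fold higher to 186, against 277 with them.

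**Figure D4:**
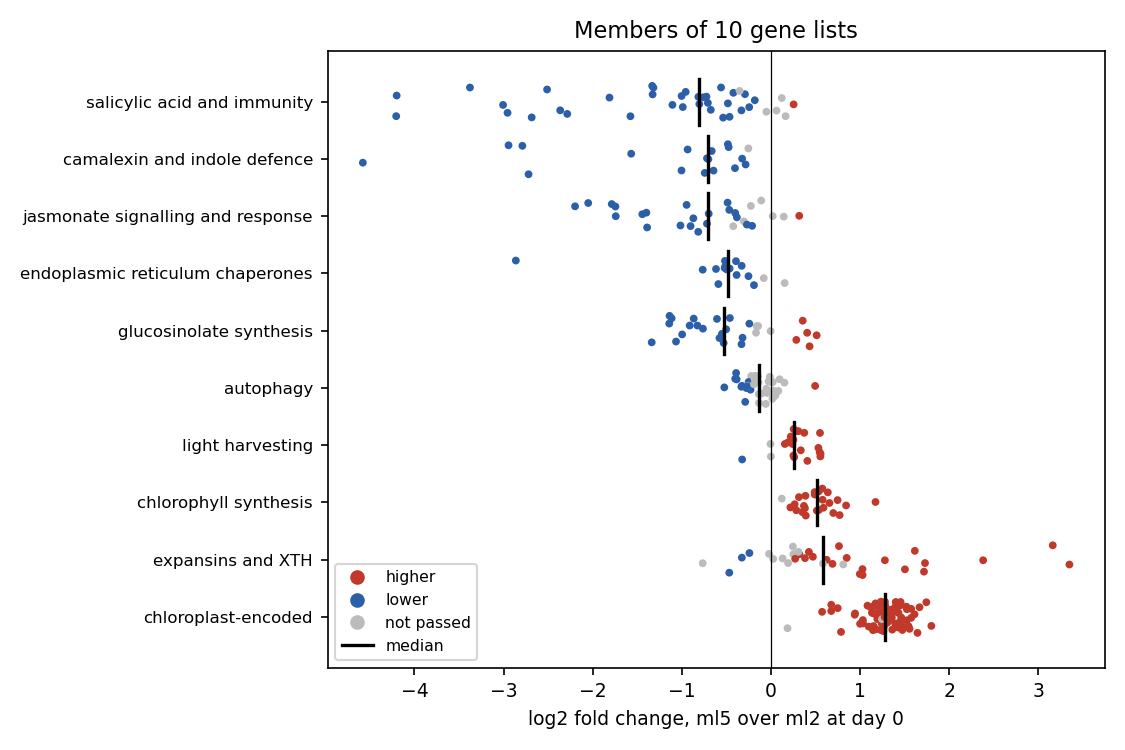
Log2 fold change of ml5 over ml2 at day 0 (x axis) for each tested member of 10 gene lists (y axis), 1 point per gene, coloured by whether it was higher, lower or did not pass, with the median of each list as a black bar. Medians run from -0.80 for salicylic acid and immunity to 1.28 for chloroplast-encoded genes, and autophagy members cluster near 0.

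Genes known to respond to darkness and low sugar were already different at day 0. Of 17 tested, 9 rose (52.9%, against 14.2% of all tested genes), 3 fell (17.6%, against 14.5%) and 5 did not pass, with a median of 0.16. ASN1, the dark-inducible asparagine synthetase, had 118, 119 and 123 CPM in the ml5 libraries, against 42.9, 30.4 and 35.3 CPM in the ml2 libraries and 12.3, 11.4 and 9.33 CPM in the WT libraries. All libraries of ml5 were above those of ml2, which were above WT, and the rise was 1.73 ± 0.070 (adjusted p = 3.05e-18). DIN10, a raffinose synthase-like gene, had 625, 626 and 639 CPM in ml5, 379, 322 and 342 CPM in ml2 and 313, 303 and 295 CPM in WT and rose by 0.86 ± 0.045 (adjusted p = 1.06e-15). BXL1, a beta-xylosidase, had 731 ± 14.4 CPM in ml5, 519 ± 67.7 CPM in ml2 and 419.8 ± 6.38 CPM in WT and rose by 0.49 ± 0.052 (adjusted p = 6.84e-09). The member with the largest fall, DIN2, was at 0 ± 0 CPM in ml5 and 0.331 ± 0.203 CPM in ml2, with no ml5 count and too few ml2 counts to give a fold. The list had 5 risers in place of 9 when the 6 libraries were fitted alone or scaled by library size.

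Autophagy genes leaned lower in ml5 and proteasome genes did not. Of 38 autophagy genes, 12 fell (31.6%, against 14.5% of all tested genes), 1 rose and 25 did not pass, with a median of -0.14. NBR1, a cargo receptor that brings ubiquitinated proteins to autophagosomes, had 343, 343 and 353 CPM in the ml5 libraries, against 474, 406 and 429 CPM in the ml2 libraries and 300.1, 303 and 291 CPM in the WT libraries. Both lines lay above WT, ml5 was below ml2, and the fold change was -0.33 ± 0.044 (adjusted p = 5.79e-07). ATG8D and ATG8C, ubiquitin-like proteins of the autophagosome membrane, had 18.5, 18.03 and 17.2 CPM in ml5, 20.8, 28.8 and 27.5 CPM in ml2 and 13.6, 16.0 and 13.2 CPM in WT and 29.1, 25.99 and 29.2 CPM in ml5, 32.3, 41.2 and 37.9 CPM in ml2 and 31.0, 28.9 and 28.4 CPM in WT. For both the first ml2 library was the lowest of its group, and the fold changes were -0.52 ± 0.10 and -0.40 ± 0.078 (adjusted p = 2.12e-04 and 1.61e-04). The riser was ATG18B, at 12.7 ± 1.05 CPM in ml5 and 9.02 ± 0.257 CPM in ml2 and 0.49 ± 0.12 (adjusted p = 0.00249). Falls numbered 18 with scaling by library size and 8 in the fit of 6 libraries. Of 34 proteasome subunits, 4 fell (11.8%, under the 14.5% of all tested genes), none rose and 30 did not pass (median -0.084), and 20 fell with scaling by library size. PBA1, a catalytic subunit, and RPT2a, a regulatory ATPase, had fold changes of -0.22 ± 0.055 and -0.17 ± 0.048 (adjusted p = 0.00257 and 0.00873).

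Amino acid catabolism had no single direction. Of 23 genes, 5 were higher in ml5 (21.7%, against 14.2% of all tested genes) and 6 lower (26.1%, against 14.5%), with a median of -0.071. With scaling by library size the counts were 1 and 11. BCAT-2, a branched-chain aminotransferase, had 27.0, 27.5 and 25.5 CPM in ml5, 54.4, 50.6 and 56.2 CPM in ml2 and 12.3, 9.93 and 13.3 CPM in WT, high in both lines relative to WT and higher in ml2, with a fold change of -1.01 ± 0.064 (adjusted p = 1.27e-13). AT5G38710, a proline dehydrogenase, and the arginase gene ARGAH2 had fold changes of -0.84 ± 0.092 and -0.49 ± 0.046 (adjusted p = 1.64e-08 and 6.01e-10).

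Stress and hormone lists outside defence had called members in both directions, beside 14.2% of all tested genes higher and 14.5% lower in ml5. In the cold and CBF list of 26, 6 rose, 8 fell and 12 did not pass (median 0.080, and -0.020 with scaling by library size). The zinc finger repressors STZ and ZAT12 of this list fell, with 24.5, 22.3 and 22.7 CPM in ml5, 60.3, 56.7 and 57.4 CPM in ml2 and 37.5, 42.0 and 41.2 CPM in WT for STZ. Their fold changes were -1.33 ± 0.064 and -1.65 ± 0.16 (adjusted p = 2.02e-16 and 1.00e-09). COR78, a cold and drought protein, was counted in the abscisic acid list and not in the cold and CBF list. It had 315, 340.0 and 378 CPM in ml5, 269, 199 and 202 CPM in ml2 and 85.8, 84.6 and 78.8 CPM in WT and rose by 0.63 ± 0.081 (adjusted p = 3.11e-07). In the abscisic acid list of 27, 6 rose, 5 fell and 16 did not pass (median -0.041). RD26, a NAC factor induced by abscisic acid, had 107 ± 6.50 CPM in ml5, 146 ± 11.9 CPM in ml2 and 63.9 ± 2.98 CPM in WT and fell by 0.44 ± 0.055 (adjusted p = 1.26e-07), and ABI1, a phosphatase that restrains the pathway, fell by 0.42 ± 0.052 (adjusted p = 1.76e-07). Of 23 heat shock genes, 2 rose and 5 fell (median -0.31), among them HSP90.1 at 5.88 ± 0.958 CPM in ml5 and 10.5 ± 1.40 CPM in ml2, a fold change of -0.85 ± 0.13 (adjusted p = 5.56e-06). Several heat shock genes were at or near 0 CPM in both lines, so the median of this list carries little weight. Of 21 cytokinin genes, 2 rose and 3 fell, shares of 9.52% and 14.3% that lie at or under those of all genes (median 0.064, and -0.0092 without the first ml2 library). The cytokinin receptor HK2 rose by 0.39 ± 0.082 and the response regulator ARR16 fell by 0.44 ± 0.12 (adjusted p = 4.00e-04 and 0.00577).

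Clock, light, sugar and nutrient lists also had called members in both directions, and the clock shares were close to those of all tested genes (14.2% higher and 14.5% lower). Of 35 clock genes, 6 rose (17.1%), 5 fell (14.3%) and the other 24 did not pass (median -0.061, and 0.0057 without the second ml5 library), with 12 falls under scaling by library size. CHE, a TCP factor of the clock, had 104, 105 and 104 CPM in ml5, 58.4, 61.0 and 62.8 CPM in ml2 and 82.7, 85.9 and 81.5 CPM in WT and rose by 0.78 ± 0.055 (adjusted p = 1.28e-12). Of 38 light and shade genes, 11 rose, 5 fell and the other 22 did not pass (median 0.059, and -0.041 with scaling by library size). PIF4 and PIL6, phytochrome-interacting factors of shade and warmth growth, had 333 ± 2.52 CPM in ml5, 254 ± 10.6 CPM in ml2 and 253 ± 8.56 CPM in WT and 293 ± 11.9 CPM in ml5, 219 ± 6.58 CPM in ml2 and 252 ± 12.1 CPM in WT. They rose by 0.39 ± 0.044 and 0.42 ± 0.048 (adjusted p = 2.32e-08 and 3.21e-08). Of 31 sugar transport and starch genes, 6 rose and 7 fell (median -0.015, and 0.035 without the first ml2 library). MSS1, a hexose transporter also known as STP13, had 142, 147 and 146 CPM in ml5, 263, 228 and 233 CPM in ml2 and 106, 107 and 107 CPM in WT and fell by 0.73 ± 0.047, while the monosaccharide carrier STP1 had 939.9, 957 and 1007 CPM in ml5, 818, 655 and 675 CPM in ml2 and 326, 303 and 311 CPM in WT and rose by 0.44 ± 0.053 (adjusted p = 1.56e-13 and 1.16e-07). Both transporters were above WT in both lines. Of 28 nutrition genes, 5 rose and 8 fell (median -0.20), among them the iron store ferritin FER1, with a fold change of -0.50 ± 0.044, and nitrite reductase NIR1, with 0.44 ± 0.059 (adjusted p = 1.31e-10 and 8.21e-07).

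Of 28 cytosolic ribosomal protein genes, 12 rose (42.9%, against 14.2% of all tested genes), none fell and 16 did not pass (median 0.14). Under scaling by library size 4 rose. RPS6 (AT4G31700), a component of the small subunit, had 107, 112 and 107 CPM in ml5, 68.3, 73.5 and 75.2 CPM in ml2 and 68.4, 69.6 and 74.3 CPM in WT, with ml2 and WT overlapping, and rose by 0.59 ± 0.058 (adjusted p = 1.74e-09). Of 17 cell division genes, the cyclins CYCD3;2 and CYCD3;1 rose, by 0.37 ± 0.083 and 0.81 ± 0.24 (adjusted p = 9.45e-04 and 0.0111), and 15 did not pass. The share that rose, 11.8%, was under the 14.2% of all tested genes. The call of CYCD3;1 was lost without the first ml5 or the third ml2 library (adjusted p = 0.0534 and 0.0556). Of 19 flowering genes, 3 fell and none rose. The share that fell, 15.8%, was near the 14.5% of all tested genes. MAF5, a repressor of flowering, had 8.78, 8.85 and 9.09 CPM in ml5, 18.6, 18.2 and 17.2 CPM in ml2 and 2.16, 2.06 and 1.96 CPM in WT, high in both lines relative to WT, and fell by 1.01 ± 0.10 (adjusted p = 3.71e-09).

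Markers of leaf cell types changed little, with 1 or 2 called members each, beside 14.2% of all tested genes higher in ml5. Of 7 guard cell markers, FMA alone rose, by 0.35 ± 0.10 (adjusted p = 0.00664), and of 7 phloem markers APL alone, by 0.22 ± 0.067 (adjusted p = 0.0109). The call of FMA was lost without the first ml2 library (adjusted p = 0.0501) and that of APL without the second ml5 library (adjusted p = 0.0559). Of the epidermal markers, 2 of 7 rose, the wax genes LTPG1 by 0.48 ± 0.076 and KCS10 by 0.23 ± 0.062 (adjusted p = 1.12e-05 and 0.00553). Of 6 xylem markers IRX12 alone rose, by 0.84 ± 0.27 (adjusted p = 0.0185), a call lost without the first or second ml5 library or the second or the third ml2 library (adjusted p = 0.0578, 0.0519, 0.0769 and 0.0725). Summed levels were 91.5 to 97.4 CPM in ml5 and 82.9 to 85.4 CPM in ml2 for guard cells, and 1672 to 1691 CPM in ml5 and 1579 to 1633 CPM in ml2 for phloem. Their part in the results above was not tested.

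The position of WT differed by group of genes, and it was read gene by gene because both contrasts against WT share the same WT libraries. Against WT, 19.5% of tested genes were higher and 18.8% lower in ml5, and 21.9% were higher and 22.6% lower in ml2. For PHI-1 the log2 fold change against WT was 5.77 in ml5 and 0.0035 in ml2, and for TCH4 it was 3.06 in ml5 and -0.29 in ml2. Both genes were therefore far from WT in ml5 and near it in ml2. PR2 was at -0.11 in ml5 and 2.40 in ml2, MDHAR at -0.10 in ml5 and 3.18 in ml2, and PAD3 at 0.40 in ml5 and 3.12 in ml2. For these genes the ml2 line was far from WT. PR1 and WRKY70 went opposite ways, at -1.49 and -0.94 in ml5 and 2.71 and 0.39 in ml2. ASN1 was above WT in both, by 3.44 in ml5 and 1.72 in ml2, and so was OPR3, by 1.38 in ml5 and 2.02 in ml2. CRD1 was at 0.084 in ml5 (adjusted p = 0.0517) and -0.61 in ml2 (adjusted p = 1.91e-15), and LHCB6 at -0.10 in ml5 and -0.64 in ml2.

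The same contrast at day 7 of darkness used other libraries. At day 7, 19% of tested genes were higher and 22.4% lower in ml5 than in ml2. Of the 2762 genes higher at day 0, 1128 (40.8%) were also higher at day 7, which is 30.5% of the 3701 genes higher at that day, and 374 were lower. Of the 2827 lower at day 0, 1481 (52.4%) were also lower, which is 33.9% of the 4363 lower at day 7, and 339 were higher. Among the 277 genes at least 2-fold higher at day 0, 42 (15.2%) were higher and 56 lower at day 7, and their median was 0.040 at day 7, against 1.33 at day 0. Among the 540 at least 2-fold lower, 329 (60.9%) were lower and 36 higher, with a median of -0.63 at day 7, against -1.68 at day 0. Since large values at day 0 chose these genes, some shrinkage toward 0 is built into such medians.

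Individual genes showed the difference between the days. PHI-1 was at -0.65 ± 0.061 at day 7, EXO at -0.91 ± 0.068 and TCH4 at -0.92 ± 0.057, all now lower in ml5 (adjusted p = 3.59e-10, 2.45e-12 and 4.11e-14). For PHI-1 and EXO the levels of ml2 and WT had moved most. Mean PHI-1 went from 54.2 CPM at day 0 to 53.5 CPM at day 7 in ml5, from 0.987 to 83.8 CPM in ml2 and from 0.970 to 63.0 CPM in WT. Mean EXO went from 42.1 to 51.1 CPM in ml5, from 1.68 to 95.7 CPM in ml2 and from 1.77 to 84.8 CPM in WT. ASN1 was at -0.42 ± 0.059, also turned (adjusted p = 7.77e-07). ML2 stayed at 3.45 ± 0.059 and ML5 at -9.05 ± 0.095, so the targeted genes kept their order. PR1 was still lower in ml5, at -1.10 ± 0.084, but PR2 was higher, at 0.39 ± 0.054 (adjusted p = 4.04e-12 and 6.46e-07). PAD3 and CYP79B2 remained lower, at -1.93 ± 0.083 and -1.95 ± 0.059, and RBCS1A remained higher, at 1.37 ± 0.038. The difference between the days passed for 5034 genes (25.8% of those tested).

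**Figure D5:**
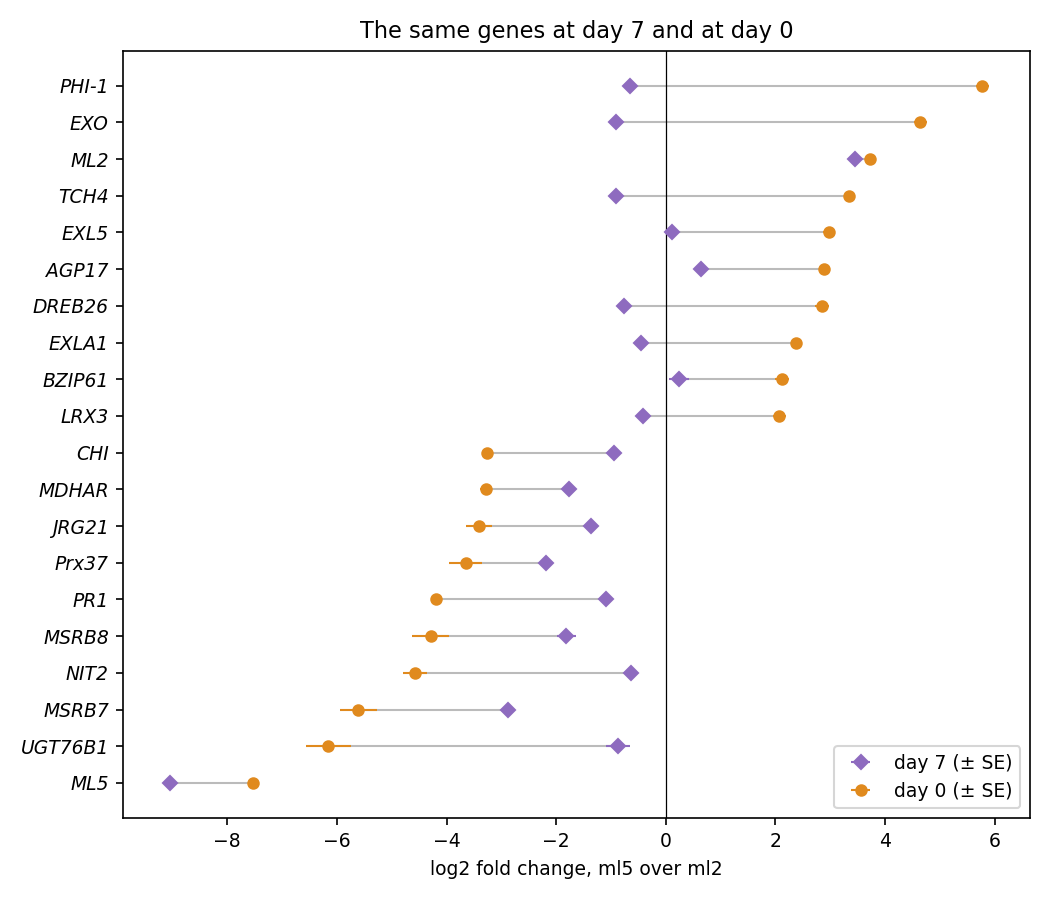
Log2 fold change of ml5 over ml2 with its SE (x axis) at day 7 and at day 0 of darkness, for the 10 largest rises and 10 largest falls at day 0 among genes with a symbol (y axis). The 9 rises other than ML2 sit between -0.92 and 0.64 at day 7, whereas the 10 falls all stay below 0.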

How the data were processed

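Leaf RNA was isolated with Trizol, and libraries were prepared with the TruSeq RNA kit, per the labels' protocols. The submitters' processing notes name TopHat2 2.0.12 and Bowtie2 2.0.6 as tools. As builds they name TAIR10 and, with no role, the rice build IRGSP-1.0. The deposited table was taken to hold the authors' estimated counts per gene, since 97.12% of values were whole while 1937 genes had some fraction. Which tool counted, and whether by strand, is not given in the sources used here. Antisense partners, overlapping genes and near-identical copies therefore have uncertain levels.

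Estimated counts were rounded and filtered with filterByExpr (minimum count 10), which left 19493 genes tested and 8135 not. They were scaled by TMM and fitted in edgeR 4.0.16 (R 4.3.3) by quasi-likelihood as 6 group means over all 18 libraries, with no replicate block. This design pools the spread over groups, and the common biological coefficient of variation was 5.63%. Two-sided p-values were adjusted over all tested genes (Benjamini-Hochberg). SE is the log2 fold change divided by the root of its F statistic. The code was tested on simulated counts. Of listed identifiers, 27420 matched RefSeq TAIR10.1 and 208 were organelle identifiers (88 chloroplast, 120 mitochondria).

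The 40 gene lists (954 entries, 952 in the table) and the groups compared were chosen with earlier results of these data known, so they are described by counts and medians and carry no set test. Genes named in the text are the Mei2-like family, up to 3 members of each list with the smallest adjusted p and libraries of the lines apart, the 10 largest rises and 10 largest falls among genes with a symbol, libraries apart and 5 CPM or more on average in 1 line, and called genes within 10 models of ML2 or ML5. Some genes that the rule names were left out for length, and any gene outside it is marked as chosen after its value was seen, or is the exception of its list. Alternatives were RLE scaling, library sizes alone, no filter, a stricter filter (mean CPM of 2, and 1 CPM in 3 libraries or more), DESeq2 1.42.0, limma-voom (limma 3.58.1), the 6 libraries alone, organelle genes left out, a replicate block and each of the 6 libraries left out. A fit of 5 libraries without the first ml2 library was added after seeing the data. The upstream window of 1 of the strong falls is not reported here.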

Additional observations from a re-analysis of the deposited data

Results flagged for a closer look

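The difference of ml5 over ml2 between the days (the log2 fold change at day 7 minus that at day 0, the interaction term of the edgeR fit) drew attention to the genes below, each at an adjusted p under 0.05. Of 147 tested genes named above, 104 differed in this way, and for 44 of them the sign at day 7 was opposite to that at day 0. Across all genes 25.8% differed, but most of these genes were named for a small p or a large difference at day 0, and those day 0 values enter the difference between the days. Such a choice raises the share, so it is a description and nothing is read from it. A negative value means that ml5 stood lower relative to ml2 at day 7 than at day 0. Among the genes with the largest rises and falls at day 0, it was -6.42 for PHI-1, -5.55 for EXO, -4.26 for TCH4, -3.61 for DREB26, -2.86 for EXL5, -2.84 for EXLA1, -2.48 for LRX3 and -2.24 for AGP17. For others of them, values were -1.88 for BZIP61, -1.53 for ML5, -0.28 for ML2, 1.47 for Prx37, 1.51 for MDHAR, 2.05 for JRG21, 2.32 for CHI and 2.48 for MSRB8. The genes with the largest rises and falls at day 0 gave 2.73 for MSRB7, 3.10 for PR1, 3.95 for NIT2 and 5.28 for UGT76B1. Among the genes without a symbol given beside them, it was -3.12 for AT1G50040 and 4.55 for AT2G45220. For Mei2-like family, values were -0.33 for ML4. Light harvesting genes gave -1.08 for LHCB1.4, -0.23 for LHCB6, 0.72 for LHCB1.1 and 0.97 for LHCB7. Among photosystem core and electron transport genes, it was -0.22 for PETE2 and 0.45 for FED A. For Calvin cycle genes, values were 0.78 for RBCS1A. Chlorophyll synthesis genes gave -0.60 for HEME2, -0.56 for PORB and 0.31 for CRD1. Among chlorophyll breakdown genes, it was 0.51 for CLH1 and 0.59 for NYE2. For leaf senescence genes, values were -0.65 for WRKY22, 1.34 for WRKY70, 1.47 for SAG13 and 2.81 for WRKY75. Dark and sugar starvation genes gave -2.15 for ASN1, -1.17 for BXL1, -1.12 for DIN10 and 4.63 for DIN2. Among autophagy genes, it was -0.75 for ATG18B, 0.32 for NBR1 and 0.33 for ATG8C. For amino acid catabolism genes, values were 0.74 for ARGAH2 and 0.76 for BCAT-2. Jasmonate synthesis genes gave 0.67 for OPR3 and 0.81 for AOC3. Among jasmonate signalling and response genes, it was -0.74 for NATA1, -0.41 for JAZ3 and 2.89 for PDF1.2. For salicylic acid and immunity genes, values were -1.12 for FLS2, 1.12 for ICS1, 2.90 for PR2, 3.05 for PR5, 3.66 for ALD1 and 4.72 for FMO1. Camalexin and indole defence genes gave -0.87 for NIT3, -0.38 for CYP79B2 and 0.79 for PAD3. Among glucosinolate synthesis genes, it was -0.21 for BCAT4, 0.30 for CYP79F1 and 0.45 for IPMI1. For abscisic acid genes, values were 0.29 for ABI1, 0.37 for COR78 and 0.38 for RD26. Cold and CBF genes gave -0.26 for COR413IM1, 0.97 for STZ and 1.63 for ZAT12. Among ethylene and ERF genes, it was 0.37 for ERF2, 0.41 for ERF4 and 0.51 for ERF-1. For cytokinin genes, values were -0.47 for HK2. Auxin genes gave -1.61 for GH3.5 and -1.26 for GH3.6. Among light and shade signalling genes, it was -0.40 for PIF4. For heat shock genes, values were 1.63 for HSP90.1. Endoplasmic reticulum chaperones gave 0.61 for BIP2, 0.68 for CRT3 and 2.23 for BIP3. Among 26S proteasome genes, it was -0.30 for PBA1. For expansins and XTH, values were -4.60 for XTH33, -2.44 for XTH4 and -1.12 for EXPA1. Sugar transport and starch genes gave -0.85 for STP1. Among phosphate iron and nitrogen nutrition genes, it was -0.96 for NIR1 and 0.61 for FER1. For reactive oxygen and detoxification genes, values were 0.39 for GSTF2. Flowering time genes gave 0.38 for MAF5. Among cell division genes, it was -0.42 for CYCD3;2. For chloroplast-encoded genes, values were -0.94 for ATCG00140 and -0.72 for ATCG00070. Mitochondria-encoded genes gave -1.51 for ATMG01190. Among the EXORDIUM and MSRB families and neighbours of ML2 and ML5, it was -2.19 for AT2G42900, -1.17 for EXL3, -0.97 for EXL4, -0.57 for MSRB5, -0.54 for AT1G29310, -0.43 for MSRB3, -0.38 for EXL2 and -0.26 for MSRB1. For the EXORDIUM and MSRB families and neighbours of ML2 and ML5, values were 1.13 for MSRB9. The fitted values of DIN2, UGT76B1 and AT2G45220 depend on the prior count, because ml5 had almost no counts of them at day 0.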

How the results depend on the processing

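Of 140 called genes named above, 125 kept their call and direction in each of the 16 alternatives that tested them, and the other 15 lost it in 1 or more. An alternative that left a gene untested was passed over for that gene, as with organelle genes where these were left out. Besides those given above, KCS10 and AT1G29310 lost it with library sizes alone (adjusted p = 0.126 and 0.0605). None of the counts of higher, lower or 2-fold genes moved by over 1.5 times, except with scaling by library sizes alone, where 1657 genes were higher and 4524 lower, against 2762 and 2827. The cause was not tested. When each library was left out in turn, higher genes numbered 2239 to 3203, lower genes 2277 to 3397, genes at least 2-fold higher 256 to 287 and genes at least 2-fold lower 483 to 566. The most calls came without ml2 day 0 replicate 1, where 2388 of the higher and 2652 of the lower genes were shared with the fit of all libraries. DESeq2 gave 2768 higher and 2710 lower, limma-voom 2863 and 2717, and the 6 libraries alone 1878 and 2187. Same-numbered libraries of the lines did not deviate together (correlations -0.071, -0.013 and -0.046), so the numbers were not taken to pair samples. With the replicate block, 2668 genes were higher and 2709 lower. An unadjusted p under 0.05 was reached by 7421 genes. Depth limited the lowest genes: DIN2 had no count in any ml5 library of day 0, UGT76B1 had 3 in all, and MSRB7 few per library.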

Other observations

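AT1G64795, which RefSeq gives no symbol, was chosen after its values were seen. At day 0 it had 1 count over the 3 ml5 libraries and 498 over the 3 ml2 libraries, a ratio of ml2 over ml5 of 389 with a 95% exact counting interval of 69.5 to 15398, which covers counting error only. Its mean level was 0.026 CPM in ml5, 9.09 CPM in ml2 and 0 CPM in WT. At day 7 it had 17.7 CPM in ml2, against no count in ml5 or WT.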
